A study of Rattus norvegicus with 35 samples.

Results

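Aquaporins are the channel proteins through which water, and for some members glycerol, crosses cell membranes, and 8 of their genes were followed here in the olfactory epithelium of Brown Norway rats. The genes Aqp1, Aqp2, Aqp3, Aqp4, Aqp5, Aqp7, Aqp8 and Aqp9 were chosen by name, as the transcripts whose gene symbol on the array was one of these names or stood in brackets in its description. Each had 1 transcript, so that the aquaporins made up 8 of the 41012 transcripts of the Agilent array. The rats were of 3 ages: 19 newborn pups of 3 to 5 days and unknown sex, from 4 litters (L1 with 4 pups and L2, L3 and L4 with 5 each), 4 adult males of 9 weeks and 4 old males of 22 months. A pup gave 1 array, and each adult or old rat gave 2, for nostrils A and B, which makes 35 arrays from 27 rats. The labels name no treatment or allele in any group. Sex was known only for adult and old rats, so age and sex cannot be told apart where pups are compared with them, and the pups of a litter are sibs.

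In a nose, the mucus over the sensory cilia is kept wet by Bowman's glands and by supporting (sustentacular) cells, and water follows the salts that these cells move. Aqp5 is known as the water channel of the apical membrane of secretory gland cells, Aqp4 and Aqp3 as channels of the basolateral membranes of many epithelia, and Aqp1 as the channel of capillary endothelium and red cells. Aqp2 is the vasopressin-controlled channel of the kidney collecting duct. Aqp3, Aqp7 and Aqp9 also carry glycerol, Aqp7 mainly in fat cells and Aqp9 mainly in liver cells, and Aqp8 is known from digestive glands.

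Each transcript was read by a designed sequence of 60 bases spotted on the array. The sequences of the genes whose levels changed are given first, with Aqp7, since they show that close relatives were read through unlike sequences: the longest run of bases shared by any pair of the 8 was 9 (Aqp5 and Aqp9). For Aqp2 and Aqp7 all bases are given, 5′ to 3′, and for the others the first 30. Each of the sequences listed has a reading frame without a stop codon over its 60 bases. The capitals in Aqp2 mark the codons of the NPA box, the signature of the water pore.
Aqp1: ccactggcatagtacagctgcatactcttc
Aqp2: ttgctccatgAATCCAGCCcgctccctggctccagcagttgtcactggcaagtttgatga
Aqp3: tgatcctcaactaggggctgtgtatgtaat
Aqp4: agtcggaaggtgataaccttcaacaaacat
Aqp5: agaatgtctgccacagctcagacctcagag
Aqp7: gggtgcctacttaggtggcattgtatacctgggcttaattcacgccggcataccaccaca

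In the coordinates of the array files, build rn3, the 60 bases lie at chr4:84396592-84396651 (plus strand) for Aqp1, at chr7:138405847-138405906 (plus) for Aqp2, at chr5:58502026-58502085 (minus) for Aqp3, at chr18:6628415-6628474 (minus) for Aqp4, at chr7:138417403-138417461 (plus) for Aqp5, and at chr5:58434116-58434175 (minus) for Aqp7. Aqp9 was read at chr8:75630616-75630675 (minus), and Aqp8 between 182476257 and 182477003 of chromosome 1, a span longer than its 60 bases. The span given for Aqp5 is 1 base shorter than its sequence. Aqp2 and Aqp5 are thus neighbours on chromosome 7, and Aqp3 and Aqp7 neighbours on chromosome 5. No annotation of build rn3 was used here, so exon and UTR positions are not given.

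A level is the log2 of the background-subtracted signal over the median signal of its array, and it is not a measure per transcript length, so levels of different genes are not ranked against each other. To count as above background, a signal had to be significant, well above the local background, uniform and not saturated. Of the 8 aquaporins, 6 were expressed at some age and were tested. Aqp1, Aqp2, Aqp4, Aqp5 and Aqp9 were above background on all 35 arrays, and Aqp3 on all but 3 adult arrays, where its spot was marked as not uniform. Aqp7 was above background on 5 of 8 adult arrays and on no other array, and Aqp8 on none, so neither passed the filter on dim transcripts (3 arrays of a litter, or 6 of 8 arrays of adult or old rats). Aqp1, Aqp2 and Aqp4 were each spotted 10 times on every array, and the spots of an array differed with a median coefficient of variation of 4.27% for Aqp1, 6.05% for Aqp4 and 18.1% for Aqp2. The other 5 genes had a single spot.

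**Figure D1:**
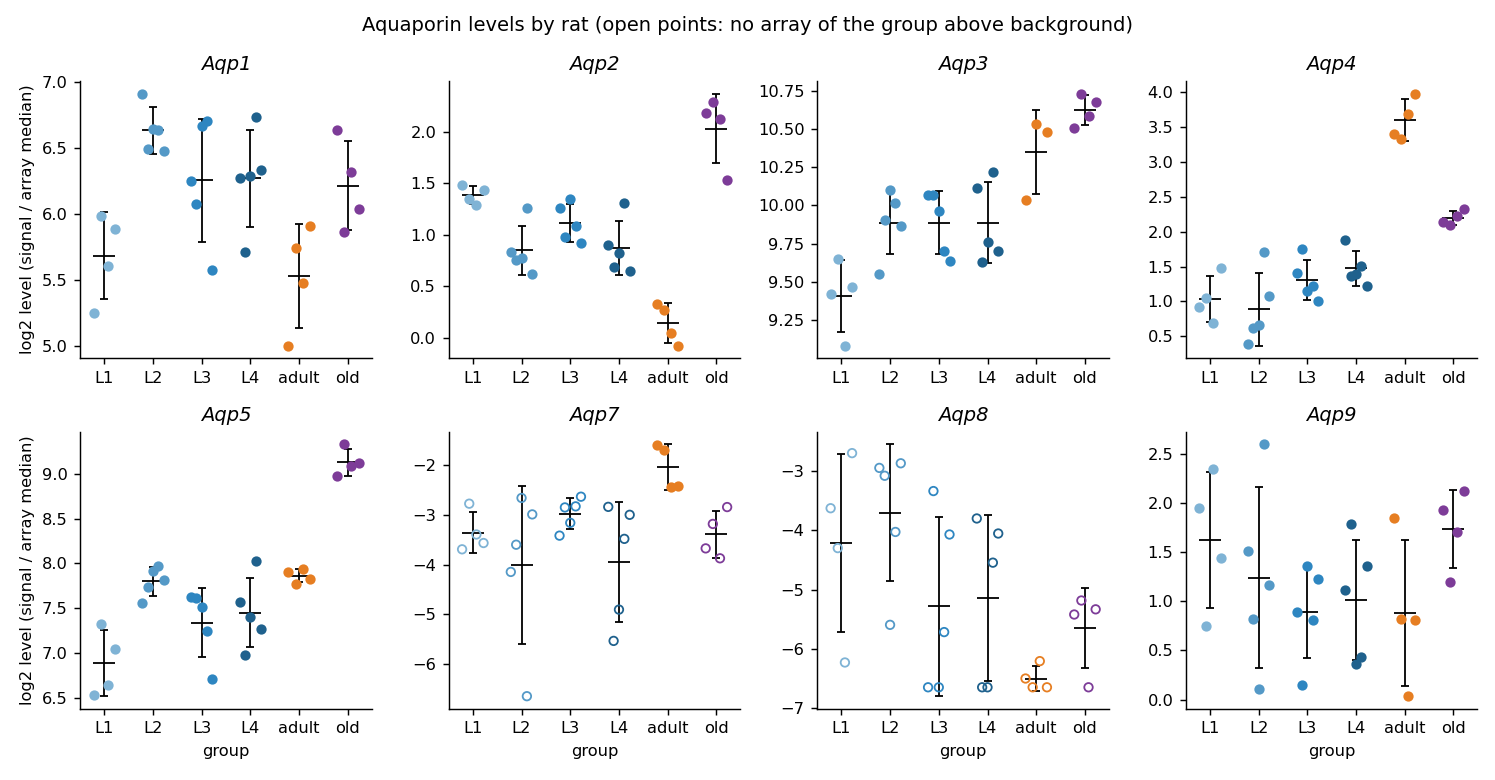
Level of each aquaporin (log2 of signal over array median, y axis) in the 4 litters, the adult and the old rats (x axis). Each point is a rat, bars give the mean and SD over rats, and open points mark groups in which no array was above background. Aqp4 was highest in the 4 adult rats, Aqp2 and Aqp5 had their highest group mean in old rats, Aqp3 too but with an adult-to-old direction that turned under quantile normalization, and Aqp8 was above background nowhere.

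Some facts of the whole experiment bear on every value below. The adult arrays stood alone on the first 2 scan days and had been read with an earlier release of the scanner software, L1 and the old rats shared the third day, and the other 3 litters were spread over the days after that. Adult rats and scan day therefore cannot be told apart. The median signal of an array was 56.6 for pups (42.1 to 87.7), 112 for adult rats (81.6 to 162) and 42.3 for old rats (37.1 to 55.3). Between 24484 and 28361 transcripts were above background per array in newborn rats, 25273 to 28020 in adult and 25275 to 27426 in old rats. Over all transcripts tested, the median log2 change was 0.16 for newborn minus adult, −0.03 for newborn minus old and −0.17 for adult minus old rats. Quantile normalization moved the first of these medians to −0.00175, the second to −0.04 and the third to −0.01. The olfactory epithelium carried the markers of its main cells: 6 of 6 measured genes of mature olfactory neurons were above background on all 35 arrays, and 8 of 9 of supporting cells on arrays of all 3 ages, the exception being Muc2, above background on no newborn array. In such bulk RNA, fewer cells of a type and less RNA per cell cannot be told apart.

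Aqp4 showed the largest change with age of the 6 aquaporins tested. In newborn rats its level lay between 0.39 and 1.88, with a median of 1.22. The 4 adult rats were at 3.40, 3.33, 3.70 and 3.98 and the 4 old rats at 2.15, 2.09, 2.23 and 2.33. All adult rats were above all old rats, and all old rats above all newborn rats. The difference was 5.37-fold between adult and newborn rats (log2 change newborn minus adult −2.43, SE 0.18, adjusted p = 1.98e-11), 2.64-fold between adult and old rats (log2 change 1.40, SE 0.23, adjusted p = 1.61e-05) and 2.03-fold between old and newborn rats (log2 change newborn minus old −1.02, SE 0.18, adjusted p = 2.13e-05). Before scaling, the signal of Aqp4 was 1079 to 1626 on adult arrays, 170 to 275 on old and 76.1 to 241 on newborn arrays. The median signal of a whole array was also highest on adult arrays, at 112 against 42.3 on old and 56.6 on newborn arrays. The part of array brightness in the unscaled Aqp4 signal was not tested. Between newborn and adult rats Aqp4 passed a fold of 5, and no other aquaporin did so in any of the 4 comparisons of ages. That threshold was missed with normexp and quantile normalization (log2 change −1.86), without adult rat 16 (−2.30) and without both adult rats of the first slide (−2.19).

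Aqp5, the secretory channel, was higher in old rats than at any other age. The old rats were at 8.97, 9.33, 9.09 and 9.12, the adult rats at 7.91, 7.77, 7.94 and 7.83, and the newborn rats between 6.53 and 8.03 with a median of 7.51. No old rat overlapped with a younger rat, whereas adult and newborn rats overlapped. The level was 3.39-fold higher in old than in newborn rats (log2 change newborn minus old −1.76, SE 0.16, adjusted p = 9.2e-10) and 2.41-fold higher in old than in adult rats (log2 change adult minus old −1.27, SE 0.20, adjusted p = 1.22e-05). Adult and newborn rats differed by 1.41-fold (log2 change newborn minus adult −0.49, SE 0.16, adjusted p = 0.00701), a call that was lost without any single adult rat (log2 changes of −0.52 to −0.47, adjusted p of 0.0134 to 0.0252) and with slide or scan day as a random block (−0.48 and −0.45, adjusted p = 0.0276 and 0.0455). With quantile normalization the change was −1.08 (adjusted p = 3.2e-08) and with normexp −0.89 (adjusted p = 4.13e-07). Unscaled, the signal of Aqp5 was 18715 to 35762 on adult and 21041 to 27264 on old arrays, with medians of 26528 and 24552. The adult-to-old difference is therefore one of Aqp5 relative to the rest of the array, and it was −0.67 on the log2 scale with quantile normalization (adjusted p = 0.00087).

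Aqp3 carries water and glycerol and is known from basal cells of many epithelia. Newborn rats were between 9.08 and 10.2, with a median of 9.76, and old rats at 10.5, 10.7, 10.6 and 10.7. The adult values rest on 3 rats, at 10.0, 10.5 and 10.5, because both spots of adult rat 13 and that of nostril A of adult rat 14 were left out as not uniform. Old rats were above every newborn rat (1.81-fold, log2 change newborn minus old −0.86, SE 0.12, adjusted p = 1.6e-06), and adult rats were above newborn rats with some overlap (log2 change newborn minus adult −0.58, SE 0.14, adjusted p = 0.000591). With the uneven spots kept, at levels of 10.8, 10.6 and 11.0, this change was −0.79 (adjusted p = 9.85e-07). It was −1.54 with quantile normalization (adjusted p = 5.33e-13) and −1.30 with normexp (adjusted p = 1.26e-13), so its size depended on the scaling. Without adult rats 15 and 16, the 2 rats of the first slide, it was −0.27 (adjusted p = 0.293). Between adult and old rats the log2 change was −0.28 (SE 0.17, adjusted p = 0.165), and its direction depended on the scaling: it was 0.61 with quantile normalization (adjusted p = 5.24e-05) and 0.34 with normexp and quantile normalization (adjusted p = 0.00405). Unscaled, the signal was 123709 to 169912 on the 5 adult arrays kept, 61285 to 79488 on old and 25775 to 76533 on newborn arrays. No direction is therefore given for Aqp3 between adult and old rats.

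Aqp2, the kidney channel, was measured at a low signal in all groups. The old rats were at 2.18, 2.29, 2.12 and 1.53, the newborn rats between 0.62 and 1.48 with a median of 0.97, and the adult rats at 0.33, 0.27, 0.05 and −0.08. Averaged by rat, the 3 ages did not overlap, but the array of nostril B of old rat 20, at 1.46, lay below the highest newborn rat. Relative to the rest of the array, Aqp2 was 3.71-fold higher in old than in adult rats (log2 change adult minus old −1.89, SE 0.16, adjusted p = 1.89e-09), 1.97-fold higher in old than in newborn rats (log2 change newborn minus old −0.98, SE 0.13, adjusted p = 3.74e-07) and 1.88-fold higher in newborn than in adult rats (log2 change newborn minus adult 0.91, SE 0.13, adjusted p = 7.76e-07). With normexp and quantile normalization the adult minus old change was −1.21 (adjusted p = 2.13e-09). These are differences of scaled values. Unscaled, Aqp2 gave 86.9 to 185 on newborn arrays, 83.0 to 194 on adult and 114 to 250 on old arrays, with medians of 113, 123 and 196, so newborn and adult arrays overlapped and their medians stood in the opposite order to the scaled levels. Within adult rats the unscaled signal was 83.0 to 98.3 on the 4 arrays of rats 15 and 16, with array medians of 81.6 to 107, and 148 to 194 on the 4 arrays of rats 13 and 14, with array medians of 117 to 162. The part of array brightness in the Aqp2 changes was not tested.

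**Figure D2:**
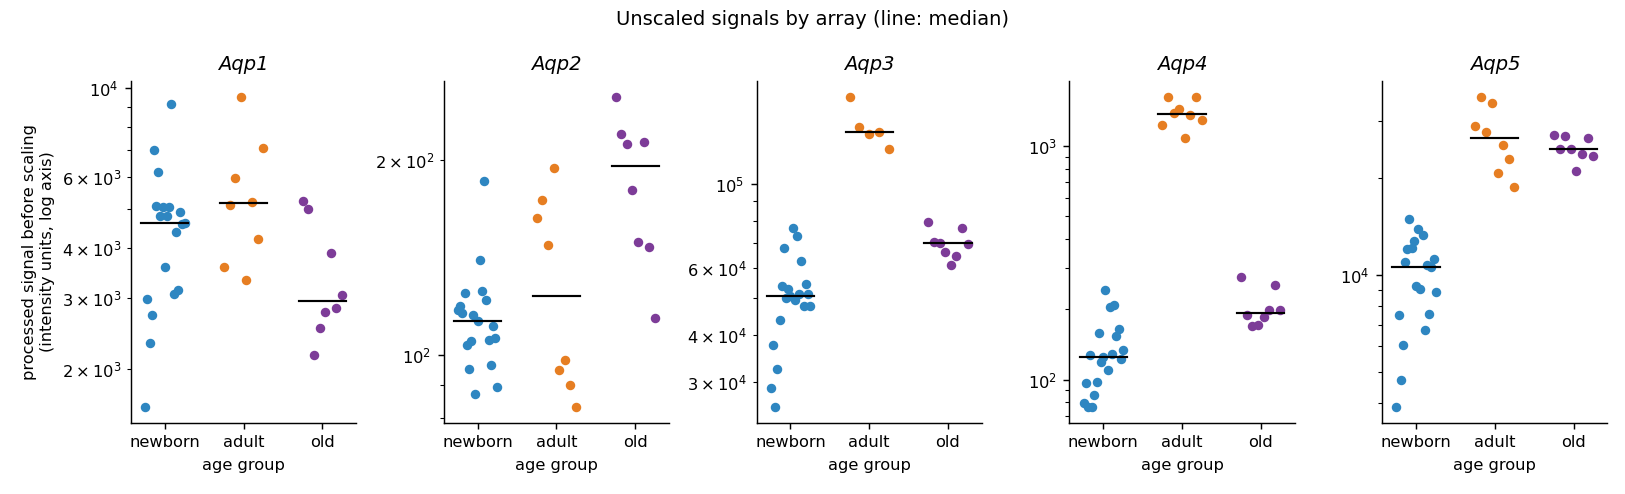
Background-subtracted signal before scaling (y axis, log scale, intensity units) of 5 aquaporins on newborn, adult and old arrays (x axis); each point is an array and each line the median. Aqp4 was brightest on adult arrays, where the median was 1372 against 193 on old and 125 on newborn arrays, whereas the medians of Aqp5 on adult and old arrays were 26528 and 24552. The median signal of a whole array was 112 on adult, 42.3 on old and 56.6 on newborn arrays.

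Aqp1, the channel of capillaries and red cells, differed little in scaled level between newborn and old rats. Newborn rats were between 5.25 and 6.91 with a median of 6.29, old rats at 6.64, 5.87, 6.32 and 6.04, and adult rats at 5.00, 5.74, 5.48 and 5.91. The groups overlapped. The log2 change newborn minus old was −0.01 (SE 0.19, adjusted p = 0.981). In newborn minus adult rats it was 0.68, or 1.60-fold (SE 0.19, adjusted p = 0.00278), and in adult minus old rats −0.68 (SE 0.24, adjusted p = 0.0202), which was not called. The first of these was not called with quantile normalization (0.30, adjusted p = 0.14), nor without adult rat 13 (0.50, adjusted p = 0.0333) or adult rat 15 (0.66, adjusted p = 0.0107), nor with slide or scan day as a random block (0.69 and 0.71, adjusted p = 0.0127 and 0.0148). Unscaled, Aqp1 gave 1601 to 9153 on newborn, 3331 to 9529 on adult and 2161 to 5242 on old arrays. The medians were 4624, 5167 and 2944, so the likeness of newborn and old rats is one of scaled values. Compared with adult rats, newborn rats were higher in 6 of 8 tested endothelial genes and in 4 of 5 red cell genes, beside 37.7% of all transcripts. Compared with old rats, for which Aqp1 gave no call, newborn rats were higher in 5 of 8 endothelial genes (median log2 change 0.90) and in 3 of 5 red cell genes (median 0.64), beside 28.5% of all transcripts. The summed level (linear scale) of the red cell list ran from 1462 to 3485 in newborn, from 537 to 954 in adult and from 987 to 1817 in old rats, and that of the endothelial list 85.4 to 198, 56.4 to 61.5 and 97.2 to 121. Such sums are set mainly by the brightest members of a list. Of the 8 endothelial genes, 3 were higher in old than in adult rats (28.4% of all transcripts). In adult rats 0 were higher (16.2% of all), and 5 were not called. Cldn5 had levels of 4.38 in adult and 6.05 in old rats, and Kdr of 3.84 and 3.51. Of the endothelial genes, Tek was above background on no array of any age, Pecam1 on 7 of 19 newborn, 0 of 8 adult and 1 of 8 old arrays, and Cdh5 on 19, 0 and 7, while Kdr, Vwf, Cldn5, Emcn and Eng were above background on all 35 arrays. The part of these cells in the Aqp1 values was not tested.

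Of the 3 remaining genes, Aqp9 gave no change between ages that passed the test. Aqp7 and Aqp8 did not pass the filter and were not tested in the main fit. Aqp9 varied widely between rats of each group, from 0.11 to 2.60 in newborn rats (median 1.17), from 0.03 to 1.85 in adult rats and from 1.20 to 2.12 in old rats. Its log2 changes were 0.31 in newborn minus adult (SE 0.35, adjusted p = 0.431), −0.55 in newborn minus old (SE 0.35, adjusted p = 0.172) and −0.86 in adult minus old rats (SE 0.45, adjusted p = 0.11). The nostrils of 1 rat differed in Aqp9 by 0.68 on average in adult and by 0.79 in old rats, more than for any other tested aquaporin. Aqp7 was at −1.59, −1.69, −2.44 and −2.42 in adult rats, against −3.87 to −2.84 in old and −6.64 to −2.63 in newborn rats, where it was not above background. Dim newborn and old values were also raised to the lowest signal of any transcript that was well above background on their array. Adult rats were then 1.21-fold above newborn and 1.09-fold above old rats. These folds are not lower bounds, since only 5 of the 8 adult arrays were themselves above background. Without the filter on dim transcripts neither change of Aqp7 was called (limma, adjusted p = 0.011 against newborn and 0.0929 against old rats). Aqp8, between −6.64 (the floor of the scale) and −2.70, was not above background on any array.

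Counted together, 5 of the 6 tested aquaporins were called between newborn and adult rats (adjusted p under 0.01). Aqp1 and Aqp2 were higher in newborn rats, a direction in which 37.7% of the 28905 transcripts tested were called, and Aqp3, Aqp4 and Aqp5 were higher in adult rats, as were 25.9% of all. Of these transcripts 4.39% also passed a fold of 5. Of all calls 59.3% were higher in newborn rats, and 48.2% with quantile normalization. Between newborn and old rats 4 of 6 were called, Aqp2, Aqp3, Aqp4 and Aqp5, all higher in old rats, beside 30.2% of 28926 transcripts higher in old and 28.5% higher in newborn rats (5.6% at a fold of 5). Between adult and old rats 3 of 6 were called: Aqp4 was higher in adult rats, as were 16.2% of transcripts, and Aqp2 and Aqp5 were higher in old rats, as were 28.4% (1.75% at a fold of 5). Of all calls here 36.3% were higher in adult rats, and 51.6% with quantile normalization. Large parts of the array thus changed with age too, and nothing particular to aquaporins follows from these counts.

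**Figure D3:**
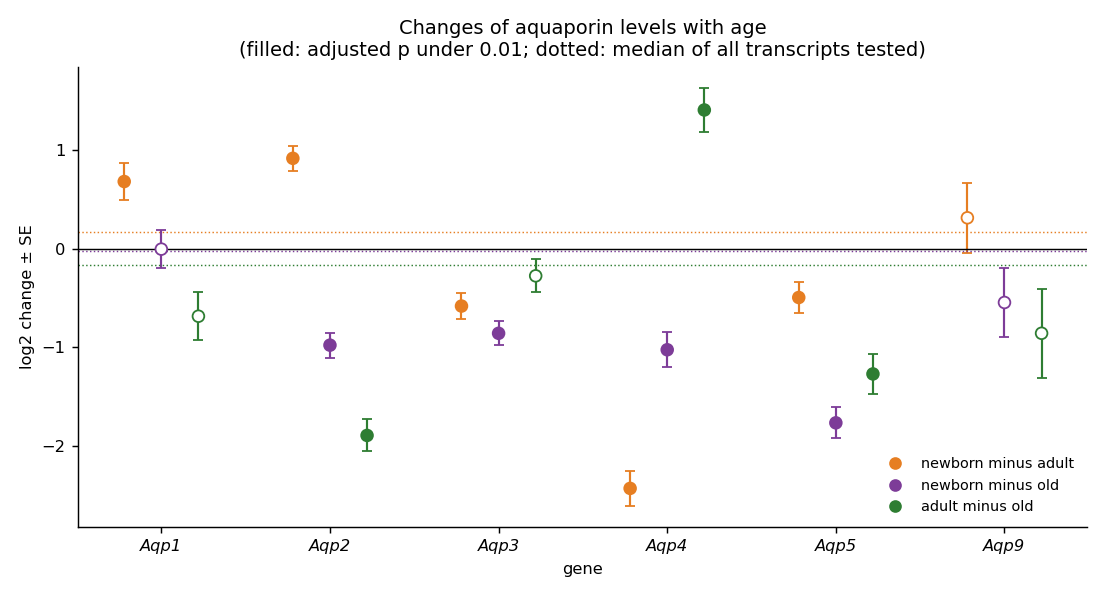
Log2 change of the 6 tested aquaporins (y axis, with the SE of the fit) for newborn minus adult, newborn minus old and adult minus old rats. Filled points had an adjusted p under 0.01, and dotted lines give the median change of all transcripts tested. Aqp4 lay at −2.43, −1.02 and 1.40, and Aqp5 at −0.49, −1.76 and −1.27.

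L1 and the old rats were scanned on the same day, on different slides. Aqp5 was at 6.53, 7.33, 6.64 and 7.04 in L1 and was 4.74-fold lower than in old rats (log2 change L1 minus old −2.25, SE 0.20, adjusted p = 2.32e-09). Aqp3 was 2.32-fold lower (log2 change −1.22, adjusted p = 6.62e-07), Aqp4 2.25-fold lower (log2 change −1.17, adjusted p = 0.000129) and Aqp2 1.56-fold lower (log2 change −0.64, adjusted p = 0.00163). In each of these 4 genes every L1 pup was below every old rat, but the share of all transcripts without such overlap was not determined. Across the array 27.1% of transcripts were called as higher in old rats, 18.9% as higher in L1 and 6.15% at a fold of 5 in either direction. Aqp1 (log2 change −0.53, adjusted p = 0.0651) and Aqp9 (log2 change −0.11, adjusted p = 0.845) were not called.

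Among pups, Aqp5 differed between litters. The litter means were 6.88 ± 0.37 in L1 (SD, n = 4), 7.80 ± 0.16 in L2 (n = 5), 7.34 ± 0.38 in L3 (n = 5) and 7.45 ± 0.39 in L4 (n = 5), a range of 0.91 (F test in limma, adjusted p = 0.00348). L1 and L2 did not overlap, and the means of L3 and L4 lay between theirs. Single pups of L3 and L4 lay below pups of L1, and the highest L4 pup (8.03) was above every L2 pup. Aqp5 was the only aquaporin of 6 called in the test of litters, in which 33.6% of all transcripts were called, and it was not called among L2, L3 and L4 alone (range 0.46, adjusted p = 0.14). L1 was scanned on another day than the other 3 litters, so litter and scan day cannot be told apart for it. Within L2, L3 and L4, the 4 pups scanned on the last day were 0.44 higher in Aqp2 than the 11 pups of the day before (SE 0.07, adjusted p = 0.00315), beside 3.5% of transcripts called in this test, and no other aquaporin was called.

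Nostrils A and B of 1 rat differed by at most 0.45 on the log2 scale for Aqp3, 0.35 for Aqp4 and 0.14 for Aqp5. Aqp1 was lower in nostril A than in nostril B in all 8 adult and old rats, by 0.39 on average in adult and 0.34 in old rats, with single differences of 0.12 to 0.91. The other expressed aquaporins had no such common direction in both ages. These differences between nostrils were not tested.

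Aqp3 and Aqp5 followed each other from rat to rat more closely than any other pair. With group means subtracted, their correlation over 26 rats was 0.81, against 0.60 for Aqp3 and Aqp4, 0.47 for Aqp4 and Aqp5 and 0.44 for the neighbouring genes Aqp2 and Aqp5. The rats share arrays, slides and scaling, so these values are descriptions. In the same measure the genes among the 3 nearest of 7489 named genes were Taldo1, Unc50 and Naa35 for Aqp3 (0.96, 0.94 and 0.94 over 26 rats) and Psen2, Cyb5a and Abca7 for Aqp5 (0.94, 0.93 and 0.93 over 27 rats). For Aqp4 they were Apobec4, Ptpn18 and Spag6l (0.94, 0.93 and 0.92), for Aqp1 Mgp, Alx1 and Tspan4 (0.87, 0.85 and 0.84), for Aqp2 Hcrt and Hbe2 (0.88 and 0.87), and for Aqp9 Ndrg2, Slc38a3 and Atp1b2 (0.87, 0.78 and 0.78). Over the levels themselves, group means included, genes among the 3 nearest were Plcg2, Fbp2 and Lgmn for Aqp5 (0.98, 0.97 and 0.97), Pgrmc1, Epb41l1 and Abhd14a for Aqp3 (0.95 each), Dzip1l, Selenot and Ccdc47 for Aqp4 (0.96, 0.94 and 0.94), Or2at1 and Oprd1 for Aqp2 (0.96 and 0.93), Pla1a, Loxl1 and Nupr1 for Aqp1 (0.84, 0.81 and 0.80) and Car4, Rasd2 and Pde4b for Aqp9 (0.75, 0.72 and 0.70).

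**Figure D4:**
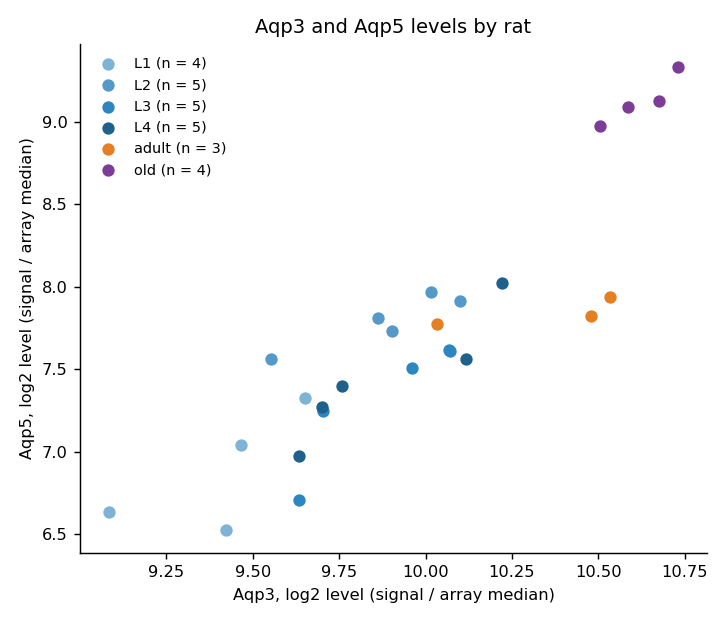
Level of Aqp5 (y axis) against that of Aqp3 (x axis), both as log2 of signal over array median; each point is 1 of 26 rats, coloured by litter or age. Rats high in Aqp3 within a group also tended to be high in Aqp5 (correlation 0.81 after subtracting group means).

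Aqp3 and Aqp5 had the highest correlation of any pair of tested aquaporins, and the 250 bases before their start sites are shown. They are from RefSeq in build GRCr8, a newer build than that of the array (chr5:61040684-61040933, minus strand, for Aqp3 and chr7:132601278-132601527, plus strand, for Aqp5). A common control of these genes was not tested. The capitals mark the TATA box motif TATAAA, the CAAT box motif CCAAT and the GC box motif GGGCGG, each searched on both strands.
Aqp3: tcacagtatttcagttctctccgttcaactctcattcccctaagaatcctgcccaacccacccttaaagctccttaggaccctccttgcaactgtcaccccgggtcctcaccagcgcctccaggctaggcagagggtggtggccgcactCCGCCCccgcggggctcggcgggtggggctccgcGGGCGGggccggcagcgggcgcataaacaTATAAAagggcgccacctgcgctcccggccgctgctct
Aqp5: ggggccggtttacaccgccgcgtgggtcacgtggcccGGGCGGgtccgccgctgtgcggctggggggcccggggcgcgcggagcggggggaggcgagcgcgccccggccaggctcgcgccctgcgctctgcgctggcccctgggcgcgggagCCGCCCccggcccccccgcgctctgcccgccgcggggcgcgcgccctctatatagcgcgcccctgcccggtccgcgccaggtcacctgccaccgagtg

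The Aqp3 window held 1 TATAAA, which begins 38 bases before the start site, and 2 matches to GGGCGG, and the Aqp5 window held 2 matches to GGGCGG and no TATAAA. Neither held CCAAT. Over all 33469 RefSeq promoters, TATAAA occurred in 12.9%, CCAAT in 34.0% and GGGCGG in 30.5% of windows of this length. The windows were 65.2% and 83.2% G and C, against a median of 51.2% over all promoters. A match describes the letters of the window and is not a binding site.

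Salt transport is the drive for aquaporin water flow, and the genes of epithelial salt absorption were listed beside the aquaporins. Of 8 tested, 4 were higher in adult than in newborn rats (25.9% of all transcripts), 2 were higher in newborn rats (37.7% of all) and 2 did not pass the test, with a median log2 change of −0.65 against 0.16 for all transcripts. Scnn1a, Scnn1b and Scnn1g, the 3 subunits of the epithelial sodium channel, all rose from newborn to adult rats: the log2 changes newborn minus adult were −1.67 for Scnn1a, −1.57 for Scnn1b and −1.12 for Scnn1g. From newborn to old rats they differed by −1.89, −2.55 and −2.03, and Sgk1, a kinase that raises channel activity, by −1.65. Atp12a, the nongastric proton pump, was 2.32 higher in newborn than in adult rats. Between newborn and old rats 5 of the 8 were higher in old rats (30.2% of all transcripts) and 2 in newborn rats (28.5%), with a median of −1.14.

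Among the genes of ion transport for gland secretion, 7 of 13 tested were higher in adult than in newborn rats (25.9% of all transcripts). In newborn rats 4 were higher (37.7% of all), and 2 did not pass the test (median log2 change −0.67). Cftr, the chloride channel of secretory epithelia, had levels of −0.72 (newborn), 1.59 (adult) and 1.94 (old), a log2 change of −2.31 newborn minus adult. Kcnma1, a calcium-activated potassium channel of glands, differed by −1.14. Newborn rats were higher than adult rats by 1.38 in Car2, a carbonic anhydrase, and by 1.23 in Kcnn4, another calcium-activated potassium channel. Between newborn and old rats 10 of the 13 were higher in old rats (30.2% of all transcripts) and 2 in newborn rats (28.5%), with a median of −0.84. Between adult and old rats 4 were higher in old rats (28.4% of all) and 1, Stim1, in adult rats (16.2%). Slc12a2, the sodium, potassium and chloride importer that loads secretory cells, had levels of 4.15 (newborn), 5.12 (adult) and 5.19 (old).

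**Figure D5:**
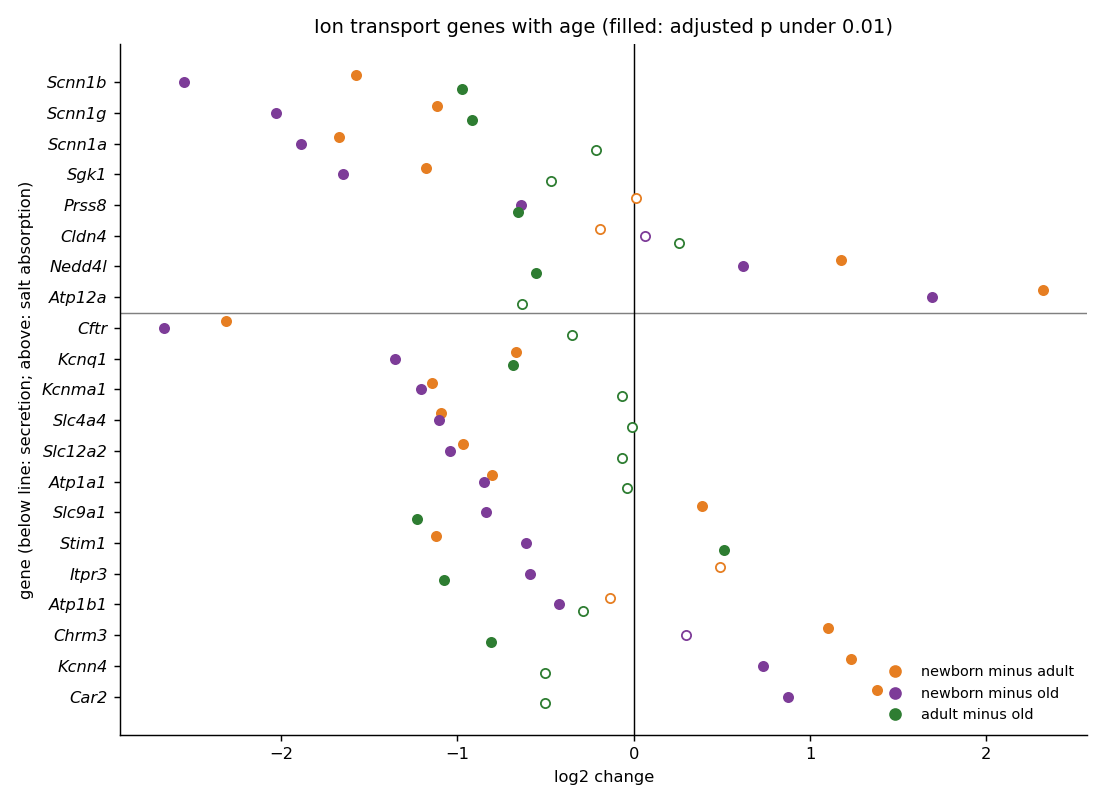
Log2 change (x axis) of 13 genes of ion transport for gland secretion (below the grey line) and 8 genes of epithelial salt absorption (above it) for newborn minus adult, newborn minus old and adult minus old rats. Filled points had an adjusted p under 0.01; Scnn1b lay at −1.57, −2.55 and −0.98.

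The genes around single aquaporins moved less uniformly. Of the aquaporin genes outside the 8, Aqp11 was tested and differed by −1.38 in newborn minus old and −1.13 in adult minus old rats (adjusted p under 0.01 for both) and by −0.25 in newborn minus adult rats (adjusted p = 0.0759), while Mip and Aqp6 were too dim to be tested. Of the 4 tested genes of the dystrophin complex that anchors Aqp4 in membranes, 3 were higher in newborn rats, whereas Aqp4 itself was higher in adult rats: Dag1 by 1.13, Agrn by 0.75 and Dmd by 0.63. Kcnj10, the potassium channel found beside Aqp4 in glia, was above background on 1 newborn array and on no adult or old array. In the list of vasopressin and collecting duct genes, which act on Aqp2 in kidney, 1 of 7 was higher in newborn and 1 in adult rats. The shares of all transcripts were 37.7% and 25.9%. Avpr2, the vasopressin receptor of that duct, was above background on 7 of 19 newborn, 1 of 8 adult and 7 of 8 old arrays. Of the other members of the list Adcy6, an adenylate cyclase, was 0.92 higher in newborn than in adult rats. Adcy3, the cyclase of olfactory cilia and also 1 of the listed markers of mature olfactory neurons, had a log2 change of −2.67. Avpr1a, another vasopressin receptor, differed by −1.78 in newborn minus old and −2.05 in adult minus old rats. Of 5 tested genes of glycerol handling, Lipe, a lipase, was higher in newborn than adult rats by 0.70, and Gpd2, a glycerol phosphate dehydrogenase, had a log2 change of −0.41 (newborn minus adult), while the other 3 did not pass the test.

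Markers of the cells that hold aquaporins are given beside the shares of all transcripts: 37.7% were higher in newborn and 25.9% in adult rats between these ages, 28.5% in newborn and 30.2% in old rats, and 16.2% in adult and 28.4% in old rats. Of 9 tested supporting cell genes 7 were higher in adult than in newborn rats (median log2 change −1.40) and 8 were higher in old than in newborn rats (median −1.54). Between adult and old rats 3 were higher in old rats, 1 in adult rats and 5 were not called (median −0.68). Their summed level, set mainly by the brightest members, was 1860 to 3987 in newborn, 4983 to 5549 in adult and 8847 to 10110 in old rats. Of 8 tested Bowman gland genes 5 were higher in newborn and 2 in adult rats (median 0.86). Between newborn and old rats 2 were higher in newborn, 2 in old rats and 4 were not called (median −0.22), and between adult and old rats 6 were higher in old and 0 in adult rats. The summed level of this list was 6385 to 9169 in newborn, 6231 to 7469 in adult and 14267 to 17142 in old rats, a sum set mainly by its brightest members. Ltf, a gland protein, was above background on no array, and Pip on no adult array. Mature olfactory neuron genes were higher in adult and old rats than in newborn rats (6 of 6 each). Skeletal muscle genes, 6 of 6, were higher in newborn rats, with a summed level of 17.1 to 531 in pups and at most 2.13 in the others. Adipocyte genes, the cells known for Aqp7, were split: 2 of 5 were higher in newborn and 2 in adult rats. Newborn rats exceeded adult rats in 6 of 8 secretory respiratory genes, 6 of 8 cartilage genes, 4 of 5 neutrophil genes, 5 of 6 immature neuron genes, 3 of 7 ensheathing glia genes and 1 of 7 basal and squamous genes, while 1 immature neuron gene and 1 glia gene were higher in adult rats. The 7 ciliated respiratory genes had adjusted p-values of 0.0204 to 0.971 in limma and none was called. The part of cell composition in the aquaporin changes was not tested.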

How the data were processed

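The authors labelled RNA with Cy3, hybridised it to Agilent whole rat genome arrays and, per the labels, extracted the scans with Agilent Feature Extraction (releases 9.5.1.1 for adult arrays and 9.5.3.1 for all others, per the file headers). The deposited intensity of a spot has a fitted background surface subtracted and can be negative, with flags for its quality. The matrix deposited beside these files holds ratio values made by the authors and served here as an alternative only. Build rn3 is that of the file headers.

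Control spots and 4189 spots marked as outliers or not uniform were left out, repeated spots and both arrays of a rat were averaged, and log2 was taken of each intensity over the median of the array, with a floor of 0.01. Symbols came from RefSeq for 10861 transcripts and otherwise from the array. Levels were compared with limma 3.58.1 (R 4.3.3) over 4 litters, adult and old rats, n = 27 rats, newborn being the mean of the litters, and p-values were adjusted by Benjamini-Hochberg over the 28926 transcripts expressed in at least 1 group (28905 where adult values were needed). Alternatives were other scalings (75th percentile, quantile, normexp), filters and floors, slide, scan day or rat as blocks, the methods' t-test, the deposited matrix and leaving out each rat. The fit was tested on simulated data first. Sequences came from the array files and from RefSeq, which held promoters for 7 of the 8 genes. Named genes were the 8 members, the 3 nearest genes to each tested member by correlation, and up to 4 genes per list with the largest change between newborn and adult rats. Scnn1g, Slc12a2, Stim1, Kcnj10 and the single cell markers were named after their values were seen. Some genes that the rule names are not reported here. The members and lists were chosen with earlier results of these data known. The number of arrays limits the precision, and p-values measure the spread between rats within a litter or within the adult or old group. The spread between litters is left out of the comparisons of newborn rats. With litter means as newborn replicates, Aqp1 and Aqp5 were not called between newborn and adult rats (limma, adjusted p = 0.0285 and 0.0186).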

Additional observations from a re-analysis of the deposited data

Results flagged for a closer look

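The test of the 4 litters found a difference for Aqp5 (adjusted p = 0.00348), the 1 aquaporin called between litters of pups of 3 to 5 days. Aqp1 (adjusted p = 0.0129) and Aqp2 (adjusted p = 0.0159) missed the threshold, which does not show that they were alike. The mean of L1 was lowest and that of L2 highest, although single pups of L3 and L4 lay below pups of L1. It was lost without L1 rat 9 (range 0.80, adjusted p = 0.0175) or L1 rat 11 (range 0.83, adjusted p = 0.0159), and among L2, L3 and L4 alone. None of the 35 sets of values tested for a sample far from the others held one, where chance gives about 1 in 20. A set holds 1 aquaporin in 1 group of 4 or 5 rats, so the sets share rats and are not independent.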

How the results depend on the processing

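Over 30 log2 changes of single aquaporins and 46 alternatives, 1216 of 1279 values kept their direction and their side of the threshold, 35 lost the call, 10 gained it and 18 changed sign. Of these, 2 were called, Aqp3 in adult minus old rats at 0.61 with quantile normalization and 0.34 with normexp. The others were of changes not called: Aqp1 in newborn minus old rats at 0.0062 with slide block, 0.029 with scan day block, 0.022 with the methods' t-test, 0.085 with newborn rats of the fourth scan day and from −0.12 to 0.13 without single rats, Aqp9 in newborn minus adult rats at −0.14 without the adult rats of slide 1, and Aqp9 in L1 minus old rats from −0.35 to 0.18 without single rats. The number of aquaporins called between newborn and adult rats was 3 in place of 5 with litter means as replicates and with slide or scan day as a random block (each without Aqp1 and Aqp5) and with the methods' t-test (without Aqp1 and Aqp3), and 2 to 5 when single rats were left out (3 without adult rat 13, 2 without adult rat 15). Without the adult rats of slide 1 or of slide 2, alternatives chosen after seeing the data, it was 3. Between newborn and old rats it stayed at 4, between adult and old rats at 3 and between L1 and old rats at 4 when single rats were left out, and the methods' t-test gave 2 for L1 and old rats. Among litters it was 2 in place of 1 with the 75th percentile and with transcripts expressed in every group, 0 with normexp, slide block, scan day block, only the pups in the fit, and L2 to L4 alone (chosen after seeing the data), and 0 to 3 without single rats. The causes were not tested. No paired analysis was possible between the groups because no rat number occurs in more than 1 group; the nostrils of a rat, which are pairs, were averaged. Aqp7 and Aqp8 were limited by their low signal over background.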
